A study of Mus musculus with 29 samples.

Results

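The mice that received dual ICI and were euthanized in week 5 (day 35) ended the experiment in different states, and their libraries were compared by outcome across all genes. The labels do not give the outcome. The members were chosen by the number in the library title, taken here as the number of the mouse in the study: mice #1 and #5 were uncured and mice #2, #3 and #4 were cured. Whether library and mouse numbers match was not tested, and every direction below rests on it. The comparison held 5 of the 29 samples of the series, 2 uncured against 3 cured. Dual ICI is the joint blockade of the T cell inhibitory receptors PD-1 and CTLA-4 by antibodies. The study followed gastric cancer (GC) peritoneal dissemination, in which tumor cells seed the lining of the abdominal cavity. All 5 mice were female C57BL/6J mice aged 5 to 6 weeks, received an intraperitoneal (IP) injection of YTN16 mouse gastric cancer cells on day 0, and were given anti-PD1 at 10 mg/kg with anti-CTLA4 at 5 mg/kg IP 5 times, the first dose on day 5 and the last on day 28. The 5 untreated mice of week 5, which carried the same cells and received PBS, are quoted beside them as a reference and entered no test here. Of these, untreated 2 stood apart, with 0.132% of its counts in gastric epithelium genes against 0.489% to 0.543% in the other 4, and 25.9% in muscle genes against 7.86% to 17.0%, and the untreated ranges below include it.

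RNA was taken from peritoneum stripped from the abdominal wall, with its nodules where there were any, although the labels give tumor tissue as the source of the cured libraries too. Tumor, peritoneal lining and underlying abdominal muscle therefore share each library. The outcome was judged by eye at autopsy, so uncured and cured name a macroscopic state, and a single injected cell line stands for the tumor. In bulk RNA from such tissue, fewer cells of a type and less RNA per cell cannot be told apart. The libraries held 25989217 and 29963330 counts (uncured 1 and 5) and 27999482, 28120154 and 28489995 counts (cured 2, 3 and 4), each with 16995 to 18307 detected genes. Levels are given as CPM, a gene's count scaled to a common library size, with sizes adjusted by TMM, which corrects for a few abundant genes taking up reads, and differences are log2 fold changes of uncured over cured with their standard error (SE) from edgeR's quasi-likelihood test and its Benjamini-Hochberg adjusted p.

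T cells that recognize a tumor antigen secrete interferon gamma, which acts through JAK kinases and STAT factors to raise antigen presentation, chemokines and the ligands of inhibitory receptors on neighbouring cells. Repeated stimulation leaves CD8 + T cells with PD-1, TIM-3, TIGIT and the transcription factors TOX and EOMES, a state called exhaustion. The resting peritoneum is a thin mesothelium on collagen, with fat, resident macrophages, vessels and nerves, lying on striated muscle.

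Outcome separated the libraries across much of the transcriptome. Of 15796 genes tested, 5831 (36.9%) were higher and 5232 (33.1%) lower in the uncured mice at an adjusted p under 0.05, and the median log2 fold change over all genes was 0.05. Against a null hypothesis of a 2-fold difference, 2742 genes (17.4%) were higher and 2029 (12.8%) lower. Those shares are the background for every gene group that follows. Scaling by library totals alone shifted all log2 fold changes upward by a median of 0.78 and gave 10127 genes higher and 2314 lower. Negative values within about that distance of 0 therefore take their direction from the scaling. Small positive values kept their direction under it but changed in size. Across genes, Pearson's r of log2 CPM was 0.987 between the uncured libraries, 0.984 to 0.990 among the cured and 0.789 to 0.824 between outcomes, with genes as points that are not independent replicates.

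**Figure D1:**
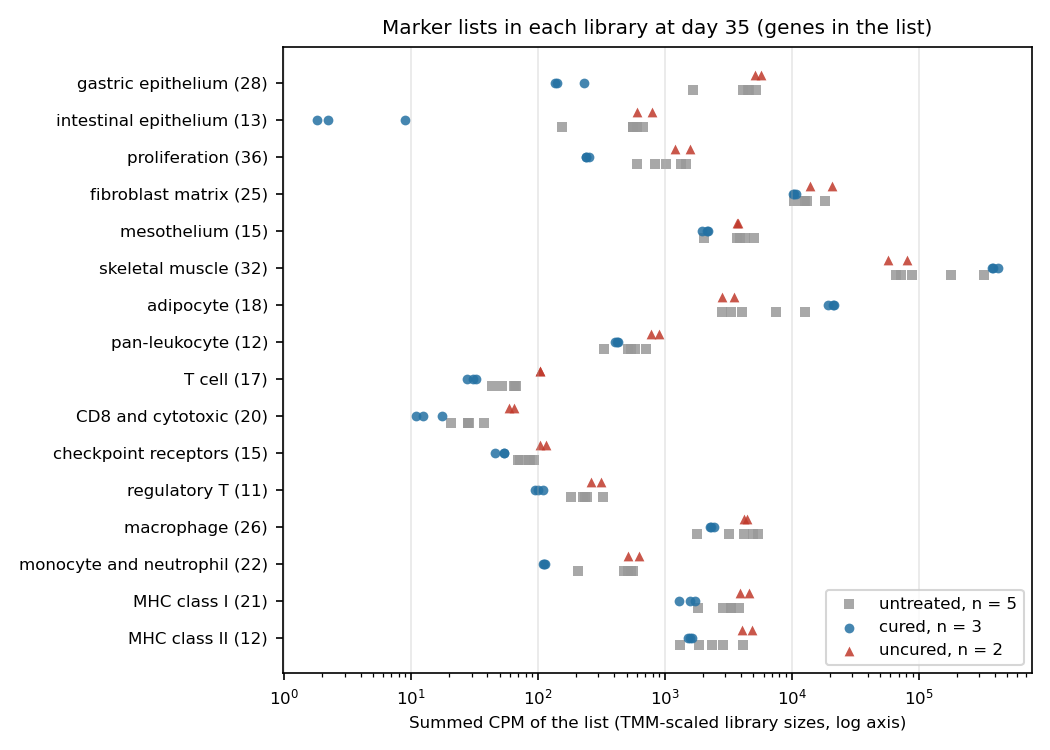
Summed CPM of the gene lists in each library (log axis), with uncured, cured and untreated week 5 libraries as separate points. Gastric epithelium genes sum to 5098 and 5775 CPM in the uncured and 136 to 231 CPM in the cured libraries, and skeletal muscle genes to 57425 and 80780 CPM in the uncured against 381071 to 422765 CPM in the cured.

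The largest differences were in genes of the gastric and intestinal epithelium, the lineage of the injected cells. 22 of 24 tested gastric epithelium genes were higher in the uncured mice and none lower (median log2 fold change 6.93). Also higher were 11 of 11 intestinal genes (median 6.63, or 6.17 with the gene at 0 in the cured mice held at its bound), 11 of 12 squamous epithelium genes, and 28 of 30 junction genes. In the squamous and junction lists the exceptions were called lower, namely the squamous factor Trp63 (-0.71, 0.07 under totals alone), the tight junction gene Cldn1 (-1.45) and the epithelial factor Ovol1 (-0.89). Neither Cldn1 nor Ovol1 was called under totals alone. Cldn1 gave -2.31 without uncured 1 and -0.90 without uncured 5. The gastric list took 0.613% and 0.708% of all counts in the uncured libraries and 0.0160%, 0.0102% and 0.00976% in the cured ones. The groups did not overlap (p = 0.2 by an exact permutation test, two-sided, and no smaller p is possible with 2 against 3), and untreated tumor-bearing mice held 0.132% to 0.543%. Epcam (chr17:87635979-87651129), an adhesion molecule of epithelial cells, had 490.0 and 485 CPM in the uncured and 5.41, 0.787 and 0.341 CPM in the cured libraries (log2 fold change 7.82 ± 0.64 (SE), adjusted p = 9.67e-06). Krt8, a keratin of simple epithelia, had 1155 and 1486 CPM against 20.5, 5.51 and 2.00 CPM (log2 fold change 7.15 ± 0.73 (SE), adjusted p = 3.57e-05). Both genes ranked the cured mice in the same order, highest in cured 2. Cdh17, a cadherin of intestinal epithelium, showed 188 and 243 CPM in the uncured mice and was detected among the cured ones in cured 2 alone (1.39, 0 and 0 CPM, log2 fold change 8.88 ± 0.58 (SE), adjusted p = 2.82e-06).

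The 12 genes with the largest rise, at 5 CPM or more on average and without overlap, included transcription factors and enzymes of gut epithelium. Hnf4a, a transcription factor of gut and liver epithelium, had 111 and 116 CPM in the uncured and 0.361, 0 and 0.0488 CPM in the cured libraries (log2 fold change 9.67 ± 0.34 (SE), adjusted p = 4.57e-07). Pdx1, which specifies the distal stomach, duodenum and pancreas, had 1033 and 1081 counts against 3 in all, a ratio between 213 and 3031 (95% interval). Others were the secretory protein gene Agr2 (9.19), the detoxifying enzymes Cyp2c65, Ugt2b34, Ugt2b35 and Ces2a, the envelope gene Sprr2a3, Tm4sf20 and Gm11545. Chil4, a chitinase-like protein, was the least even of them, with 80 and 1374 counts in the uncured libraries and none in the cured, at least 134-fold higher against a floor of 3 counts a library. Without cured 2 the fitted value of Hnf4a was 11.90, that of Epcam 9.72 and the median of the intestinal list 9.22.

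The cured libraries were not equally free of these transcripts. Over the 28 gastric and intestinal genes at 5 CPM or more in the uncured mice, cured 2, 3 and 4 held 4560, 2847 and 2720 counts in sum, 3.84%, 2.29% and 2.17% of the mean uncured level. Tspan8, a tetraspanin, gave 1905, 1713 and 2149 of these counts. Krt19, a keratin that is also in the mesothelium list, gave 977, 456 and 196. The keratins Krt8, Krt7 and Krt18 gave 397, 341 and 233 in cured 2, and 41, 67 and 44 in cured 4. By gene, 24 of the 28 had their highest cured value in cured 2, where none was at 0, against 6 at 0 in cured 3 and 9 in cured 4. The median gene stood at 1.37%, 0.464% and 0.0975% of its uncured level in cured 2, 3 and 4. The source of these counts was not tested.

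**Figure D2:**
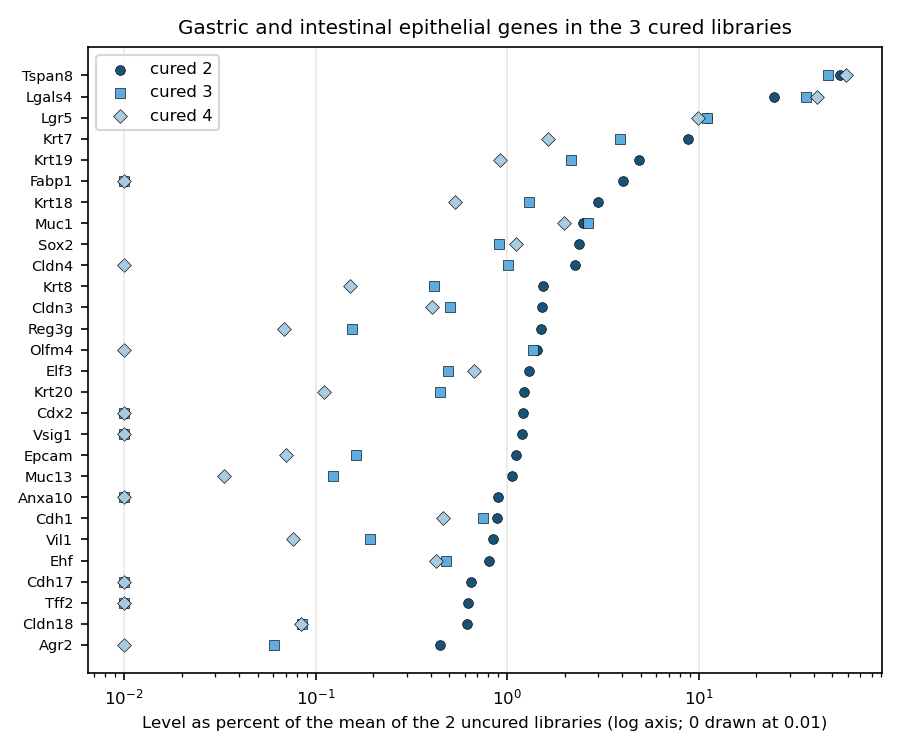
Level of each of the 28 gastric and intestinal epithelium genes at 5 CPM or more in the uncured mice, in the 3 cured libraries as a percent of its mean uncured level (log axis), 1 point per gene and library. The medians are 1.37% in cured 2, 0.464% in cured 3 and 0.0975% in cured 4.

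Cell cycle genes followed the epithelial ones. 34 of 36 were higher and 1 lower in the uncured mice (median 3.21). Mki67, the proliferation antigen, had 66.5 and 87.2 CPM against 2.52, 3.74 and 3.17 CPM (log2 fold change 4.59 ± 0.19 (SE), adjusted p = 5.03e-07). Foxm1, which drives the G2/M program, had 34.9 and 50.3 CPM against 1.34, 1.08 and 1.12 CPM (log2 fold change 5.16 ± 0.22 (SE), adjusted p = 5.41e-07). Neither gene overlapped between outcomes, and uncured 5 was above uncured 1 for all 36 genes. Cdt1, a replication licensing factor that the study names among its YTN16 neoantigen sources, was also higher (log2 fold change 3.19), while Zfp106, another of them, was lower (-2.28) and Scarb2 had -0.24 with adjusted p = 0.123, passing without cured 2 (-0.33) and turning to 0.55 under totals alone. Ccne2, a cyclin of S phase entry, was the one cycle gene that was lower (-0.94), a call lost without uncured 1 (-0.75) or cured 3 (-0.84).

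Skeletal muscle moved the other way. All 32 muscle genes were lower in the uncured mice, also against a 2-fold null (median -2.71). Muscle transcripts took 9.71% and 7.04% of the uncured counts and 29.3%, 27.7% and 27.4% of the cured (p = 0.2 by the same exact permutation test), with 7.86% to 25.9% in untreated mice. Acta1, the muscle actin, had 11546 and 9708 CPM against 67379, 54728 and 52617 CPM (log2 fold change -2.47 ± 0.18 (SE), adjusted p = 4.67e-06). Myl2, the regulatory light chain of slow fibers, had 33.4 and 23.9 CPM against 669, 502 and 577 CPM (log2 fold change -4.36 ± 0.20 (SE), adjusted p = 6.66e-07). Both genes separated the outcomes, and the value of the slow fiber gene was the more negative. Mb, the oxygen-binding protein of oxidative fibers, gave -4.21, Myh2, the myosin of fast oxidative fibers, -4.12, and Ckmt2, the mitochondrial creatine kinase, -4.25, against -2.63 for Tnnt3, the troponin T of fast fibers. The ratio of Myh2 to Myh4 was 0.0323 and 0.0267 in the uncured and 0.0966, 0.0907 and 0.0922 in the cured libraries, 3.16-fold higher in the cured, with 0.0129 to 0.0534 in untreated mice. Within the muscle signal, Myh2 was thus scarcer relative to Myh4 in both uncured libraries than in any cured one. This ratio and those below were chosen after the values were seen, and where the groups do not overlap, the exact permutation p is 0.2, the smallest possible.

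Muscle genes of development, denervation and stress moved in both directions. Myh3, the embryonic myosin, had 19.9 and 19.2 CPM in the uncured and 7.58, 8.81 and 6.78 CPM in the cured libraries (log2 fold change 1.33 ± 0.16 (SE), adjusted p = 9.03e-05). Myh8, the perinatal myosin, had 47.8 and 39.8 CPM against 22.5, 31.6 and 23.4 CPM (log2 fold change 0.74 ± 0.16 (SE), adjusted p = 0.00335). Both were higher in the uncured mice although muscle transcripts as a whole were lower. Per adult myosin transcript (Myh1, Myh2, Myh4 and Myh7), their sum was 0.00380 and 0.00530 against 0.000341, 0.000456 and 0.000359, an 11.8-fold difference. Chrng, the fetal subunit of the muscle acetylcholine receptor (2.51, 2.06 and no longer called without uncured 5), Ankrd1, a stretch-induced sarcomere protein (2.22), and Runx1, which is induced in denervated muscle but is also made by leukocytes and epithelium (2.90), were higher as well. The ubiquitin ligases of muscle wasting were lower, with -1.82 for Fbxo32 and -2.22 for Trim63, and per adult myosin transcript their groups overlapped (0.00947 and 0.0211 against 0.00882, 0.00827 and 0.00970). Of the same kind, Ankrd2, a relative of Ankrd1, was lower (-3.72), as were the myogenic factor Myog (-0.69, 0.09 under totals alone) and the stress gene Gadd45a (-0.40, 0.39 under totals alone). The call of Myog was lost without uncured 1 (-0.46), cured 3 (-0.55) or cured 4 (-0.70), and that of Gadd45a without uncured 1 (-0.28), cured 2 (-0.38) or cured 4 (-0.36). In the whole atrophy and stress list, 9 of 23 genes were higher and 10 lower.

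The 12 genes with the largest fall were mostly muscle genes. Sbk2, a kinase gene of striated muscle, had 1.79 and 5.72 CPM against 62.4, 80.0 and 154 CPM (log2 fold change -4.70 ± 0.55 (SE), adjusted p = 8.23e-05). Ostn, the muscle-secreted peptide musclin, had 0.416 and 0.300 CPM against 8.76, 13.3 and 15.8 CPM (log2 fold change -5.15 ± 0.38 (SE), adjusted p = 4.94e-06). Csrp3, a Z-disc protein, gave -4.11. All were low in both uncured libraries and highest in cured 4 among the cured. Crip3 (-5.18), Oxtr, the oxytocin receptor (-4.33), and the transcripts Gm13490, B230312C02Rik and 2310020H05Rik completed the 12. Pgr, the progesterone receptor and the lowest of the drug target genes, had 0.480 and 0.300 CPM in the uncured and 8.14, 2.36 and 9.41 CPM in the cured libraries (log2 fold change -4.10 ± 0.65 (SE), adjusted p = 0.000493). Oxtr, at 14.8, 4.77 and 12.4 CPM across the cured libraries, was like Pgr lowest in cured 3 among them.

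28 of 30 oxidative phosphorylation genes were lower (median -1.94). The exceptions were Cox6a1 (1.11) and Cox8a (0.64), the non-muscle forms of respiratory chain subunits, while the muscle forms Cox6a2 and Cox8b gave -2.80 and -2.90. Of the glycolysis and hypoxia genes, 11 of 29 were higher and 16 lower, beside 36.9% and 33.1% of all genes. The genes named next were chosen after their values were seen. Pfkm, Pgam2 and Slc2a4, which muscle uses, gave -2.74, -3.15 and -2.94. Pfkl, Pfkp, Pgam1 and Hk1 of other tissues gave 1.86, 1.66, 1.84 and 1.24. Car9, a carbonic anhydrase induced by hypoxia, had 42.0 and 63.3 CPM against 4.64, 4.18 and 3.46 CPM (log2 fold change 3.68 ± 0.21 (SE), adjusted p = 1.34e-06), and Vegfa, the angiogenic factor, was lower (-1.01).

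**Figure D3:**
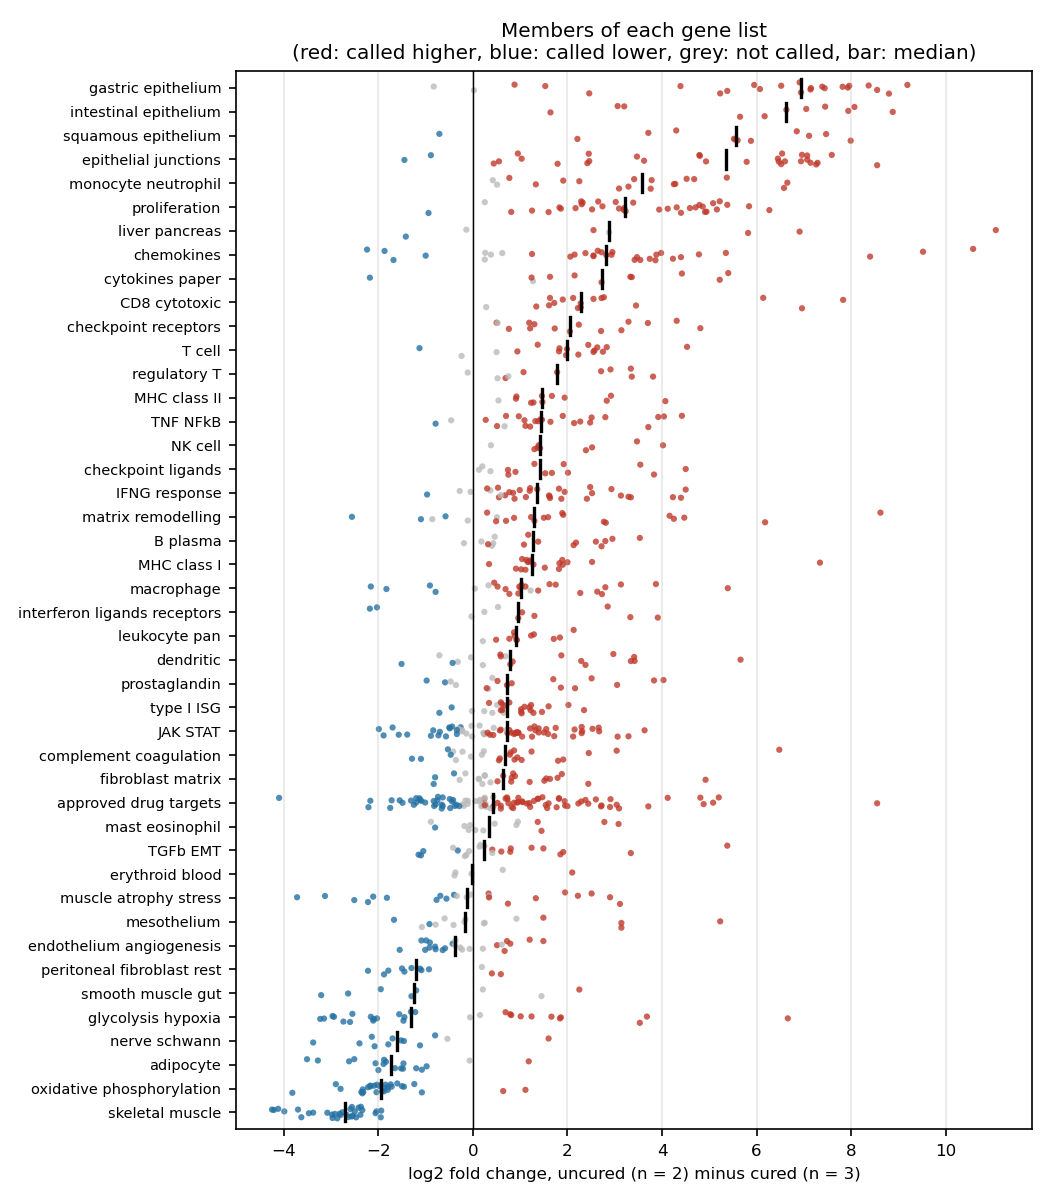
Log2 fold change (uncured over cured) of every tested member of each gene list, 1 point per gene, with the list median marked. The medians run from -2.71 for skeletal muscle to 6.93 for gastric epithelium, beside 0.05 over all genes.

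Fat and nerve genes were also lower. 16 of 18 adipocyte genes were lower (median -1.74). Lep, the fat hormone leptin, had 0.992 and 1.66 CPM in the uncured and 25.4, 13.7 and 6.63 CPM in the cured libraries (log2 fold change -3.51 ± 0.57 (SE), adjusted p = 0.000565). Adipoq, the hormone adiponectin, had 30.7 and 22.8 CPM against 118, 83.1 and 83.7 CPM (log2 fold change -1.84 ± 0.19 (SE), adjusted p = 3.47e-05). Among the cured mice cured 2 held the most of both, and Pparg, the adipocyte master regulator that macrophages and epithelium also use, was the one gene of the list that was higher (1.18). 10 of 12 nerve and Schwann cell genes were lower (median -1.61), and the nerve list was also lower in uncured 5 than in uncured 1. The endothelial list split, with 6 of 24 higher and 11 lower and a median of -0.37 that turned to 0.41 under totals alone. Its higher members included the leukocyte-capturing selectins Sele (1.49) and Selp (1.20), and its lower ones the quiescence receptor Tek (-1.55) and Flt1 (-1.09), which traps VEGF.

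Mesothelial genes did not move together. Of 15 tested, 4 were higher, 2 lower and 9 not called (median -0.16, which turned to 0.63 under totals alone, 0.23 without cured 2 and 0.06 without uncured 5). Msln, mesothelin, a surface antigen of mesothelium that carcinomas also make, had 217 and 204 CPM against 39.7, 22.1 and 9.32 CPM (log2 fold change 3.14 ± 0.43 (SE), adjusted p = 0.000215). Upk3b, a mesothelial uroplakin, had 26.6 and 15.7 CPM in the uncured and 66.0, 51.2 and 15.9 CPM in the cured libraries (log2 fold change -1.08, adjusted p = 0.0801). Cured 4 lay between the uncured mice for Upk3b, and it was also the lowest cured library for Msln. Without cured 4, Upk3b gave -1.51 and passed, and without cured 2 it gave -0.70. Gpm6a, a membrane protein of mesothelium, was lower throughout (8.77 and 8.31 CPM against 38.2, 29.8 and 13.0 CPM, log2 fold change -1.67 ± 0.38 (SE), adjusted p = 0.00403).

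Fibroblast genes divided between matrix production and resting markers. 14 of 25 matrix genes were higher and 3 lower (median 0.64), and 17 of 23 remodelling genes were higher (median 1.30), while 9 of 12 genes of resting adventitial and peritoneal fibroblasts were lower (median -1.21). Tnc, the wound matrix protein tenascin C, had 233 and 602 CPM against 9.07, 14.8 and 17.1 CPM (log2 fold change 4.92 ± 0.41 (SE), adjusted p = 1.05e-05). Col1a1, type I collagen, had 2441 and 3773 CPM against 1337, 1234 and 1448 CPM (log2 fold change 1.20 ± 0.18 (SE), adjusted p = 0.000415). Timp1, the inhibitor of metalloproteases, had 47.9 and 84.7 CPM against 4.07, 2.26 and 2.58 CPM (log2 fold change 4.47 ± 0.29 (SE), adjusted p = 2.84e-06). Each was higher in uncured 5 than in uncured 1, as were 22 of the 25 matrix genes. Mmp7, a metalloprotease of epithelium, had 417 and 138 counts in the uncured and 1 in the cured libraries, a ratio of 492-fold (95% interval 87.9 to 19464). On the resting side, the adventitial fibroblast marker Pi16 gave -1.12, Dpt, dermatopontin, -1.45, and the proteoglycan gene Dcn -0.80, which under totals alone was -0.02. Pan-fibroblast Pdgfra was lower (-0.83, -0.05 under totals alone) and Pdgfrb did not pass (-0.16, adjusted p = 0.182, 0.63 under totals alone).

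T cell genes were higher in the uncured mice at low absolute levels. 14 of 17 T cell genes were higher and 1 lower (median 1.99), and 16 of 17 CD8 and cytotoxic genes were higher (median 2.28, or 2.22 with the 2 granzymes at 0 in the cured mice held at their bound). Cd8a, which defines CD8 + T cells, had 8.55 and 9.02 CPM in the uncured and 3.09, 1.18 and 1.76 CPM in the cured libraries (log2 fold change 2.12 ± 0.33 (SE), adjusted p = 0.000485). Cd4 had 8.29 and 8.91 CPM against 1.49, 1.38 and 1.42 CPM (log2 fold change 2.57 ± 0.21 (SE), adjusted p = 9.45e-06). Untreated mice held a median of 3.31 CPM of Cd8a, below both uncured libraries. Bcl11b, a T lineage factor that keratinized and neural cells also use, gave 4.53, and Tcf7, the factor of naive and stem-like T cells, gave 2.75. The CD3 genes (Cd3d, Cd3e and Cd3g) per Ptprc count, the pan-leukocyte phosphatase, stood at 0.188 and 0.164 against 0.0832, 0.0414 and 0.0772. This ratio was 2.62-fold higher in the uncured mice, on 61, 40 and 75 CD3 counts in cured 2, 3 and 4. It covers these genes only, since Cd28 and Cd247 did not follow them (below). CD8 genes per CD3 count overlapped between outcomes (0.792 and 0.914 against 1.11, 0.925 and 0.773).

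Among effector genes, Prf1, the pore-forming perforin, had 1.63 and 2.59 CPM against 0.258, 0.394 and 0.293 CPM (log2 fold change 2.72 ± 0.41 (SE), adjusted p = 0.00037). Gzmb, granzyme B, had 1.22 and 1.39 CPM against 0.515, 0.443 and 0.293 CPM (log2 fold change 1.63 ± 0.39 (SE), adjusted p = 0.00551). Gzmb per CD8 count overlapped between outcomes, at 0.105 and 0.107 in the uncured and 0.147, 0.243 and 0.103 in the cured libraries. Gzmc had 36 and 39 counts in the uncured and none in the cured libraries (at least 7.41-fold higher). Eomes, a factor of effector and exhausted CD8 + T cells, had 94 and 174 counts against 3, 0 and 0, a ratio of 79.2-fold (95% interval 26.8 to 386), all 3 of the cured counts being in cured 2. Its relative Tbx21, which drives type 1 effector cells, did not pass (1.67 and 1.72 CPM against 0.928, 1.38 and 1.80 CPM, log2 fold change 0.28, adjusted p = 0.487). Ifng itself was too low to be tested.

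Cd28 was the T cell gene that ran against the rest. This costimulatory receptor, to which CD80 and CD86 bind (chr1:60716800-60773359), had 2.79 and 3.10 CPM in the uncured and 5.41, 6.64 and 7.12 CPM in the cured libraries (log2 fold change -1.13 ± 0.23 (SE), adjusted p = 0.00208), and it remained lower but was no longer called under totals alone (-0.35) or in fits over all 29 libraries (-1.12) or the 19 of week 5 (-1.11). Every cured library exceeded both uncured ones. Per CD3 count, Cd28 stood at 0.190 and 0.218 against 1.72, 3.38 and 1.95, 11.5-fold higher in the cured mice, on sums of 40 to 75 CD3 counts in the cured libraries. Values above 1 mean more Cd28 than CD3 counts, and counts were not corrected for gene length. Cd247, the CD3 zeta chain, also did not follow the CD3 genes (2.79 and 2.15 CPM against 3.14, 2.66 and 2.88 CPM, log2 fold change -0.24, adjusted p = 0.414, 0.54 under totals alone).

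**Figure D4:**
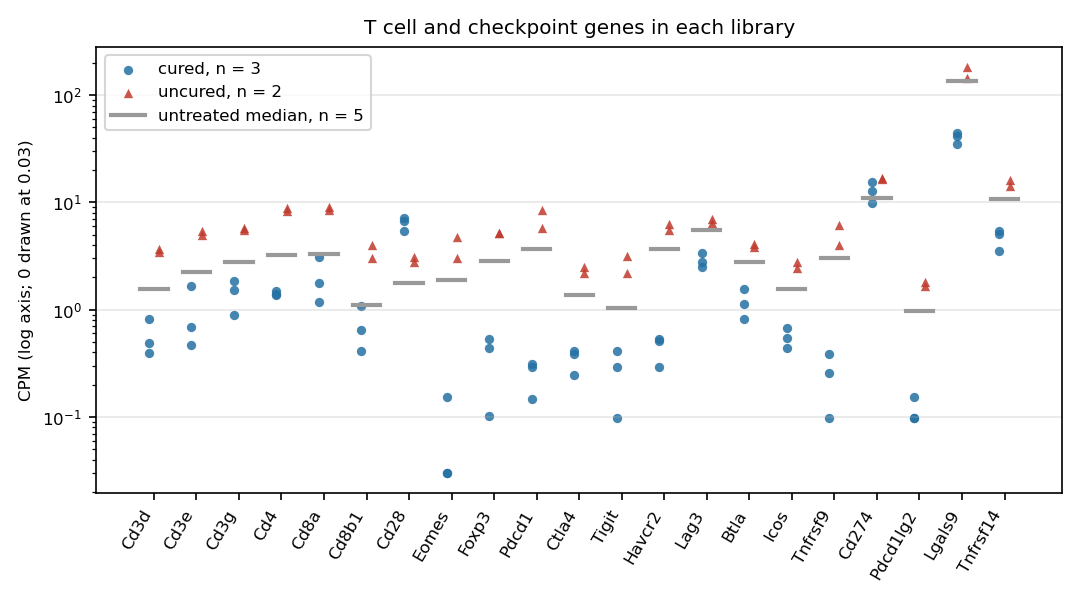
CPM of T cell lineage genes and factors, checkpoint receptors, ligands and costimulatory genes in each uncured and cured library (log axis), with the untreated week 5 median. Pdcd1 lies at 5.76 and 8.58 CPM in the uncured libraries and at 0.148 to 0.309 CPM in the cured, and Cd28 lies higher in the cured.

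14 of 15 checkpoint receptors were higher and none lower in the uncured mice (median 2.05). Pdcd1, which encodes PD-1, the target of the injected antibody (chr1:94038305-94052553), had 5.76 and 8.58 CPM in the uncured and 0.309, 0.148 and 0.293 CPM in the cured libraries (log2 fold change 4.81 ± 0.36 (SE), adjusted p = 6.01e-06), on 6, 3 and 6 counts in the cured. Ctla4, the other target, had 78 and 80 counts against 8, 5 and 8 counts (log2 fold change 2.71 ± 0.36 (SE), adjusted p = 0.000177). The CD3 genes Cd3d, Cd3e and Cd3g gave 2.63, 2.44 and 1.99, so the value of Ctla4 was close to theirs and that of Pdcd1 larger. Havcr2, which encodes TIM-3 on exhausted T cells and on macrophages and dendritic cells, gave 3.70 ± 0.31, Tigit 3.29 ± 0.47, the costimulatory receptor Tnfrsf9 (4-1BB) 4.31 ± 0.44, and Tox 3.14 ± 0.37. The smaller differences were those of Lag3 (1.21), Btla (1.73), Cd160 (1.30), Cd244 (1.19), Cd96 (2.05), Icos (2.24), Tnfrsf4, which is OX40 (0.76), and the ectoenzyme Entpd1 (0.50). Tnfrsf18, which is GITR, did not pass (0.52, adjusted p = 0.0707), but passed without cured 3 (0.70). Of these smaller calls, that of Cd160 was lost when any library but cured 4 was left out (1.04 to 1.45), that of Tnfrsf4 without cured 3 (0.64), cured 4 (0.66) or uncured 5 (0.66), that of Cd244 without uncured 1 (0.94) and that of Entpd1 without uncured 5 (0.39).

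Relative to CD3 counts, the receptors did not all move alike, on few counts for several of them in the cured libraries. Pdcd1 stood at 0.394 and 0.603 in the uncured and 0.0984, 0.0750 and 0.0800 in the cured libraries, 5.90-fold higher in the uncured. Havcr2 was 2.67-fold, Tnfrsf9 4.41-fold and Tigit 2.13-fold higher in the uncured mice, without overlap. In cured 2, 3 and 4, Havcr2 had 10, 6 and 11 counts and Tnfrsf9 had 5, 2 and 8. Tigit had 8, 2 and 6 counts there, and its ratio in uncured 1 (0.149) was close to that in cured 2 (0.131). Ctla4 per CD3 was 1.34-fold higher in the uncured mice (0.171 and 0.153 against 0.131, 0.125 and 0.107). Lag3, an MHC class II receptor also made by other leukocytes, was 2.33-fold higher per CD3 in the cured mice (0.438 and 0.496 against 0.803, 1.70 and 0.760), and Btla overlapped. Untreated tumor-bearing mice had a Pdcd1 to CD3 ratio of 0.425 to 0.598, which lay between the uncured values and above the cured ones. Their ratios were 0.258 to 0.764 for Havcr2, 0.0957 to 0.321 for Tigit and 0.129 to 0.283 for Ctla4. Tnfrsf9 stood at 0.464 to 0.553 and Lag3 at 0.713 to 0.933 there. The uncured values of Havcr2, Tigit and Ctla4 lay within the untreated ranges, and those of Tnfrsf9 and Lag3 lay below them.

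11 of 14 ligands of these receptors were higher and none lower (median 1.41). Cd274, which encodes PD-L1, did not pass, with 16.4 and 16.8 CPM in the uncured and 12.8, 9.84 and 15.5 CPM in the cured libraries (log2 fold change 0.37 ± 0.19 (SE), adjusted p = 0.108), although it passed without cured 4 (0.52) and was 0.20 without cured 3. Pdcd1lg2, which encodes PD-L2, had 1.67 and 1.80 CPM against 0.155, 0.0984 and 0.0975 CPM (log2 fold change 3.83 ± 0.44 (SE), adjusted p = 7.43e-05). Of the PD-1 ligands, the more abundant one thus had the smaller value, with cured 4 close to the uncured mice. Lgals9, a TIM-3 ligand, gave 2.01, Ceacam1, an adhesion molecule of epithelium and activated T cells, 3.54, Cd276, which is B7-H3, 1.92, and Tnfrsf14, the BTLA ligand HVEM, 1.67. The CTLA-4 and CD28 ligands Cd80 and Cd86 gave 1.53 and 0.74, calls that were lost without uncured 5 (1.40 and 0.63), and Pvr, the TIGIT ligand, 0.90. Also higher were Icosl (0.75) and Tnfsf9 (1.30). Ido1, the tryptophan-degrading enzyme, was uneven between the uncured mice, with 2.43 and 17.4 CPM against 0.876, 0.295 and 0.146 CPM (log2 fold change 4.50 ± 0.87 (SE), adjusted p = 0.00167), and 2.45 without uncured 5. Vtcn1 (0.13) and 4632428N05Rik, which encodes VISTA (0.20), did not pass.

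Foxp3, the factor of regulatory T cells, had 5.22 and 5.23 CPM against 0.103, 0.443 and 0.536 CPM (log2 fold change 3.81 ± 0.43 (SE), adjusted p = 6.5e-05), and 8 of 11 genes of its list were higher. Per CD3 count it was 2.69-fold higher in the uncured mice, at 0.357 and 0.368 against 0.0328, 0.225 and 0.147, lowest in cured 2, which held 2 Foxp3 counts. Untreated mice had 0.249 to 0.652 for this ratio, a range that held both uncured values. 8 of 9 NK genes were higher, among them Klrd1 (2.52), and Ncr1, a defining NK receptor, was at 0.480 and 0.436 CPM in the uncured mice. In the B lineage, 11 of 16 were higher. Jchain, which joins the IgA and IgM secreted by plasma cells, had 196 and 163 CPM against 48.4, 32.7 and 37.4 CPM (log2 fold change 2.18 ± 0.16 (SE), adjusted p = 4.38e-06). Of 14 mast cell and eosinophil genes, 9 were not called.

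Macrophage genes moved in both directions. 19 of 26 were higher and 4 lower, with 3 not called (median 1.02). Cd68, a lysosomal protein of macrophages, had 43.0 and 56.9 CPM against 23.1, 26.6 and 26.7 CPM (log2 fold change 0.96 ± 0.14 (SE), adjusted p = 0.000371), and per Ptprc count it overlapped between outcomes (0.553 and 0.655 against 0.611, 0.559 and 0.563). Spp1, osteopontin, which tumor-associated macrophages and tumor cells secrete, had 499 and 406 CPM against 18.2, 6.55 and 7.46 CPM (log2 fold change 5.39 ± 0.37 (SE), adjusted p = 3.7e-06). Arg1, arginase, gave 3.87, the inducible nitric oxide synthase Nos2 3.13, and the lipid receptor Trem2 2.80. The genes called lower were Timd4, Retnla, Lyve1 and Folr2. Timd4, a receptor of long-lived resident macrophages, had 47 and 81 counts against 111, 125 and 162 counts (log2 fold change -1.83 ± 0.28 (SE), adjusted p = 0.000395), and Retnla, which like Arg1 is made by alternatively activated macrophages, had 106 and 70.7 CPM against 426, 421 and 321 CPM (log2 fold change -2.16 ± 0.20 (SE), adjusted p = 1.92e-05). Lyve1 (-0.91, -0.13 under totals alone) and Folr2 (-0.79, -0.01 under totals alone) were lower on the TMM scale. Per Cd68 count, Lyve1, Timd4 and Folr2 together stood at 1.41 and 1.34 against 5.04, 4.15 and 5.61, 3.58-fold higher in the cured mice, and Spp1, Arg1 and Trem2 together at 12.6 and 8.44 against 1.07, 0.492 and 0.463, 15.6-fold higher in the uncured. Both ratios are free of library scaling. Lyve1, Timd4 and Folr2 were picked from the genes called lower, while Cd68 was called higher, so the direction of the first ratio follows from that choice. Untreated mice had 1.03 to 2.87 and 9.58 to 31.2 for these ratios. In the uncured mice Spp1 made up most of the sum of Spp1, Arg1 and Trem2. Whether macrophages or tumor cells made it was not tested, nor which cells made Lyve1, Timd4 and Folr2.

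Neutrophil and monocyte genes were among the widest leukocyte differences, 16 of 18 higher and none lower (median 3.58). S100a8, a calcium-binding protein that fills neutrophils, had 13.3 and 20.2 CPM against 0, 0.394 and 0.780 CPM (log2 fold change 5.37 ± 0.57 (SE), adjusted p = 4.25e-05). Cxcr2, the receptor that brings neutrophils to tissue, had 5.47 and 7.57 CPM against 0.206, 0.0492 and 0.488 CPM (log2 fold change 4.68 ± 0.50 (SE), adjusted p = 4.5e-05). S100a8 and S100a9 per Ptprc count were 16.3-fold higher in the uncured than in the cured mice, against 2.62-fold for the CD3 genes. Untreated mice had 0.419 to 0.902 for the S100a8 and S100a9 ratio, beside 0.326 and 0.425 in the uncured. For the CD3 ratio they had 0.1 to 0.294, a range that held both uncured values. Ly6c2, of inflammatory monocytes, gave 2.25 and their chemokine receptor Ccr2 0.77. Ltf and Lcn2, granule proteins that epithelium also makes, gave 6.58 and 4.28. Among dendritic cell genes, 12 of 19 were higher and 2 lower. Ccr7, which takes mature dendritic cells and naive T cells to lymph nodes, had 4.74 and 6.76 CPM against 0.618, 0.246 and 0.732 CPM (log2 fold change 3.41 ± 0.39 (SE), adjusted p = 6.79e-05), whereas Batf3, a factor of the cross-presenting lineage, did not pass (-0.32, 0.47 under totals alone).

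Antigen presentation genes were higher almost throughout. All 18 MHC class I genes (median 1.25) and 11 of 12 class II genes (median 1.47) were higher. H2-K1, a classical class I heavy chain, had 1426 and 1646 CPM against 459, 333 and 438 CPM (log2 fold change 1.89 ± 0.15 (SE), adjusted p = 8.09e-06). H2-Q2, a class I relative whose reads could be shared with its near-identical neighbours, had 12.0 and 16.8 CPM against 0.258, 0 and 0 CPM, its few cured counts all in cured 2. Cd74, the class II invariant chain, had 2189 and 1734 CPM against 715, 672 and 716 CPM (log2 fold change 1.47 ± 0.12 (SE), adjusted p = 1.09e-05). Their regulators Nlrc5 for class I and Ciita for class II gave 2.52 and 1.94. Class II genes per Ptprc count were 1.36-fold higher in the uncured mice.

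Interferon gamma response genes were higher for 28 of 33 members and lower for 1 (median 1.36), and type I interferon genes for 19 of 26 (median 0.72), with 2 lower. Cxcl9, which draws CXCR3-bearing T cells, had 39.1 and 101 CPM against 4.69, 2.21 and 3.02 CPM (log2 fold change 4.40 ± 0.42 (SE), adjusted p = 2.4e-05). Irf1, an interferon-induced transcription factor, had 98.9 and 114 CPM against 38.8, 28.0 and 35.8 CPM (log2 fold change 1.63 ± 0.14 (SE), adjusted p = 1.16e-05). Cxcl10 gave 4.23, Icam1 2.48 and Irf8 1.87. The chemokines had larger values than the other genes named here. Of the 33 genes, 28 were higher in uncured 5 than in uncured 1, 4 of them by over 2-fold. The type I gene Ifit1 did not pass (0.24), and Ifit3 was lower (-0.71) but 0.08 under totals alone, and lost its call without uncured 1 (-0.55), cured 2 (-0.60) or cured 4 (-0.61).

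STAT dimers bind the palindrome TTCNNNGAA (the gamma-activated site, GAS), which is its own reverse complement, so a search of 1 strand covers both. It was looked for in RefSeq promoters on GRCm38.p6, from 250 bases before to 50 after each start. It lay in 2288 of 27025 promoters (8.47%), in 7.10% of those of tested genes, in 9 of 16 promoters (56.2%) of interferon gamma response genes called higher that had an entry, in 4 of 29 (13.8%) of the JAK-STAT genes called higher, and in 2 of 13 (15.4%) of those called lower. A match is a description of the letters and not a binding site. No interferon gamma response gene called lower had an entry, and members not called were not searched. The share in that list therefore describes the genes chosen for it and cannot be tied to the outcome. The promoters of Irf1 (chr11:53769764-53770063 on the plus strand), Irf8 (chr8:120736108-120736407 on the plus strand) and Icam1 (chr9:21015690-21015989 on the plus strand) are shown as interferon targets that were higher, and those of the feedback inhibitors Socs3 (chr11:117969317-117969616 on the minus strand) and Cish (chr9:107296409-107296708 on the plus strand) as STAT targets that were higher and lower, with the motif in capitals.
Irf1: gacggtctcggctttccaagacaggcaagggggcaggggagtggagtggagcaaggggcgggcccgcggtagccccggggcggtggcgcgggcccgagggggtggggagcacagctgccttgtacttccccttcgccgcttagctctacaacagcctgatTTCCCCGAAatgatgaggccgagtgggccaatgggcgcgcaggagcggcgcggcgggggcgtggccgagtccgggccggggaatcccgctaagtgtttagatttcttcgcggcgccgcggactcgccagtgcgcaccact
Irf8: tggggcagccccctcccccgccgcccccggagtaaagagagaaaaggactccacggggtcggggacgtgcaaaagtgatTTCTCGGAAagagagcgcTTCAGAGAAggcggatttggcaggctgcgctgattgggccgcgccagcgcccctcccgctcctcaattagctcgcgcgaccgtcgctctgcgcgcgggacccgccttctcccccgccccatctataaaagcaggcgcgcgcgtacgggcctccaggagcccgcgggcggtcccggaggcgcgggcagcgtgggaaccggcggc
Icam1: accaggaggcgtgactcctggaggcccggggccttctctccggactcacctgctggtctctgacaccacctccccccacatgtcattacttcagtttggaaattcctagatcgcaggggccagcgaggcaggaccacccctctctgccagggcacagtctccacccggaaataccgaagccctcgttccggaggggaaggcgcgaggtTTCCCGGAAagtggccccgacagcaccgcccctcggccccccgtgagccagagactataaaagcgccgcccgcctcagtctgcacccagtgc
Socs3: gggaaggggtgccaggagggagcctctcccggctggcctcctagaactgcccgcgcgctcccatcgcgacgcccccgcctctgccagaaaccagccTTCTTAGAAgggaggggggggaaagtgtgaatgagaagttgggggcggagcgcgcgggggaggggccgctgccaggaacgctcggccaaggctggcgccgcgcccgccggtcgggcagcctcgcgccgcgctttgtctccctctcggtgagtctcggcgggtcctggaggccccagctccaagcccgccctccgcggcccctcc
Cish: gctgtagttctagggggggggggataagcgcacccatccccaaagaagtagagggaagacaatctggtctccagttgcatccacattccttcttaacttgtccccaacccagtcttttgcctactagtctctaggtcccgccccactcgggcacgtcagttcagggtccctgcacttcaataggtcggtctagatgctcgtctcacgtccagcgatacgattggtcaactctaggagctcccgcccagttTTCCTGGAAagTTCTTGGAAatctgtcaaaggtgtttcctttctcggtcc

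**Figure D5:**
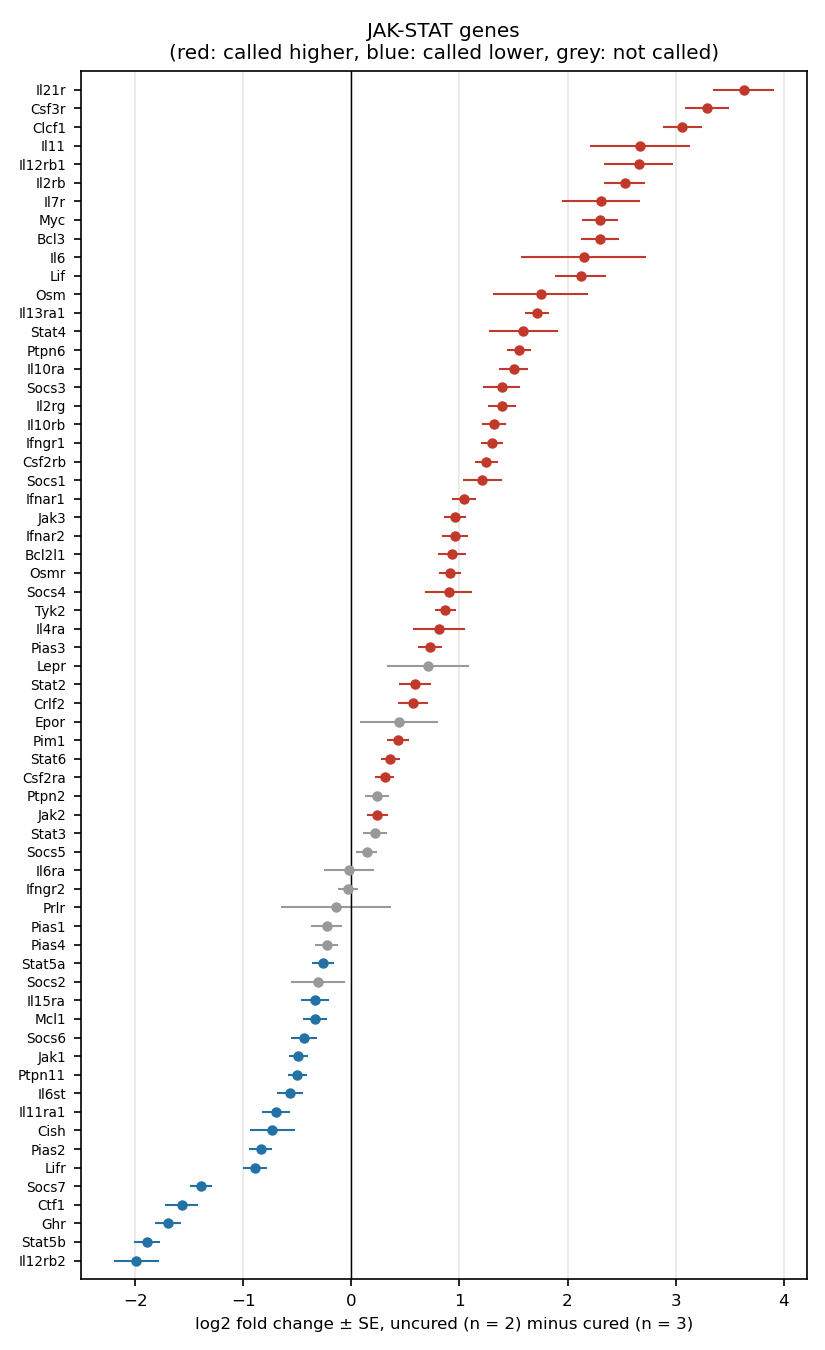
Log2 fold change (uncured over cured) with SE of JAK-STAT genes, ordered by value and marked by call. Values run from -1.99 for Il12rb2 to 3.63 for Il21r, and Stat3 at 0.22 is not called.

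In the JAK-STAT list, 38 of 65 genes were higher, 16 lower and 11 not called (median 0.71). Against a 2-fold null, 18 were higher and 5 lower, beside 17.4% and 12.8% of all genes. The summed CPM of the list overlapped between outcomes, at 3788 and 3971 in the uncured and 3917, 3898 and 4092 in the cured libraries. The 4 kinases did not share a direction. Jak1 was lower, with 161 and 158 CPM against 218, 226 and 221 CPM (log2 fold change -0.49 ± 0.09 (SE), adjusted p = 0.00137), but 0.30 under totals alone. Jak3, the leukocyte kinase, had 75.5 and 62.4 CPM against 36.1, 34.6 and 34.4 CPM (log2 fold change 0.96 ± 0.10 (SE), adjusted p = 4.87e-05), Tyk2 gave 0.87, and Jak2 gave 0.24 at adjusted p = 0.0461, a call that was lost when any library but uncured 1 was left out (0.16 to 0.24). Stat3, the transducer of IL-6 family signals, had 219.6 and 233 CPM in the uncured and 201, 173 and 205 CPM in the cured libraries (log2 fold change 0.22 ± 0.11 (SE), adjusted p = 0.0968) and did not pass. Stat4, used by IL-12, gave 1.59, Stat6 0.36 and Stat5a -0.26, the last turning to 0.52 under totals alone and losing its call when any library but uncured 1 was left out (-0.29 to -0.16). Stat5b, the growth hormone transducer of muscle, fat and liver, had 149 and 138 CPM against 490.5, 521 and 567 CPM (log2 fold change -1.89 ± 0.12 (SE), adjusted p = 1.99e-06), and the growth hormone receptor Ghr was lower as well (-1.70).

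Of the targets and inhibitors of the pathway, Socs3, induced by STAT3, had 97.7 and 122 CPM against 52.4, 37.0 and 36.0 CPM (log2 fold change 1.39 ± 0.17 (SE), adjusted p = 0.000104). Cish, induced by STAT5, had 17.1 and 26.0 CPM against 39.4, 28.5 and 38.8 CPM (log2 fold change -0.73 ± 0.21 (SE), adjusted p = 0.0114), close to 0 at 0.05 under totals alone, and not called without uncured 1 (-0.46). Socs1 gave 1.21, Socs7 -1.39, Myc 2.30, Bcl3 2.30 and Pim1 0.43. Among ligands, Lif had 14.8 and 22.2 CPM against 5.10, 3.25 and 4.34 CPM (log2 fold change 2.12 ± 0.24 (SE), adjusted p = 6.85e-05), Clcf1, another IL-6 family cytokine, 3.06, Il11 2.67, Osm 1.75 and Il6 2.15, the last on under 1 CPM in every library. The calls of Osm and Il6 were lost without uncured 5 (1.53 and 2.11). Their receptors parted, Osmr being higher (0.91) and Il6st, the shared gp130 chain, and Lifr lower (-0.57 and -0.89, or 0.21 and -0.11 under totals alone). Il21r, a lymphocyte receptor, had 10.4 and 12.4 CPM against 0.928, 0.591 and 1.22 CPM (log2 fold change 3.63 ± 0.28 (SE), adjusted p = 7.24e-06), and Csf3r, the G-CSF receptor of neutrophils, gave 3.29. The 2 chains of the IL-12 receptor went opposite ways, Il12rb1 at 2.66 and Il12rb2 at 2.43 and 1.99 CPM against 8.81, 8.42 and 8.88 CPM (log2 fold change -1.99 ± 0.21 (SE), adjusted p = 3.96e-05).

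Il12a, the p35 subunit of IL-12, was likewise higher in the cured mice, with 0.576 and 1.14 CPM against 2.99, 3.94 and 4.83 CPM (log2 fold change -2.18 ± 0.39 (SE), adjusted p = 0.000985), while Il12b, the p40 subunit, had 1.82 and 1.63 CPM against 0.258, 0.0984 and 0.146 CPM (log2 fold change 3.33 ± 0.45 (SE), adjusted p = 0.0002). Il15, which sustains memory CD8 + T cells and is abundant in muscle, had 5.38 and 5.37 CPM against 24.5, 19.1 and 21.9 CPM (log2 fold change -2.03 ± 0.16 (SE), adjusted p = 7.23e-06). Il12a, Il12rb2, Il15 and Cd28, grouped here by their direction, stood higher in the cured mice without overlap. Il12a and Cd28 were not called in the fits over 19 or 29 libraries, and Il12rb2 not in that over 19. Cd28 was also not called under totals alone. Which cells made these transcripts was not tested. Il1b, the inflammasome cytokine, had 12.9 and 16.2 CPM against 0.155, 0.394 and 0.585 CPM (log2 fold change 5.22 ± 0.35 (SE), adjusted p = 3.1e-06), and Tnf had 8.77 and 13.6 CPM against 0.722, 0.295 and 0.536 CPM (log2 fold change 4.42 ± 0.35 (SE), adjusted p = 7.65e-06). Tgfb1 gave 1.24, Il4 did not pass (1.27), and Il13 was too low to be tested. In the TNF and NF-kB list, 22 of 25 genes were higher and 1 lower (median 1.43), led by the adhesion molecule Vcam1 (4.04).

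Of 33 chemokines tested, 25 were higher and 4 lower (median 2.82, unchanged with the 2 genes at 0 in the cured mice held at their bound). Cxcl5, a neutrophil attractant, had 108 and 122 CPM against 0.773, 0.0492 and 0.195 CPM (log2 fold change 8.40 ± 0.34 (SE), adjusted p = 5.03e-07). Cxcl3, another CXCR2 ligand, had 192 and 325 counts in the uncured and none in the cured libraries, at least 50.2-fold higher. Ccl20, an epithelial ligand of CCR6, had 101 and 144 counts against none, at least 23.9-fold higher. The CXCR2 ligands and the neutrophil genes named were high in both uncured libraries, as is any gene called higher without overlap. A link between them was not tested. Cxcl16, the CXCR6 ligand, gave 3.54 and Cx3cl1 3.86. The lower members were the eotaxins Ccl11 (-1.68) and Ccl24 (-2.24), Ccl27a (-1.87), and the stromal homeostatic chemokine Cxcl12 (102 and 75.8 CPM against 183, 163 and 183 CPM, and not called under totals alone). Ptgs2, which encodes the prostaglandin enzyme COX-2, had 7.84 and 18.9 CPM against 1.08, 0.935 and 0.780 CPM (log2 fold change 3.83 ± 0.40 (SE), adjusted p = 4.08e-05).

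Of 100 tested genes encoding targets of approved cancer drugs, 52 were higher and 31 lower (median 0.43), 29 and 7 against a 2-fold null. Erbb2, which encodes HER2, had 101 and 92.9 CPM in the uncured and 14.2, 13.0 and 11.4 CPM in the cured libraries (log2 fold change 2.90 ± 0.11 (SE), adjusted p = 4.94e-07). Fgfr2, a receptor amplified in some gastric cancers, had 72.0 and 29.1 CPM against 1.55, 2.12 and 1.42 CPM (log2 fold change 4.88 ± 0.39 (SE), adjusted p = 8.29e-06). Fgfr2 was the less even, higher in uncured 1. Cdk6, a cell cycle kinase, had 26.6 and 24.2 CPM against 0.979, 0.837 and 0.244 CPM, and Top2a, the target of anthracyclines, 5.08. On the lower side stood Vegfb (-2.21), Dnmt3a (-1.31) and Fgfr1 (-1.20), beside Pgr.

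The uncured mice were not identical. By log2 CPM, 200 genes were over 2-fold higher in uncured 5 and 329 in uncured 1, with 1 library each and no test. Uncured 5 was higher for 8006 of all 15796 genes tested, the background for such counts here and above. It was higher for 22 of 26 macrophage genes, 18 of 23 remodelling genes and all 12 pan-leukocyte genes. Tnc, at 233 and 602 CPM, Cxcl9, at 39.1 and 101 CPM, and Ido1, at 2.43 and 17.4 CPM in uncured 1 and 5, were examples chosen after their values were seen. Uncured 1 was higher for most mast cell, nerve, adipocyte and skeletal muscle genes (median log2 differences -0.64, -0.74, -0.30 and -0.41). T cell genes did not follow this order, with a median difference of -0.02 and 8 of 17 genes higher in uncured 5. The muscle share of the library also differed between the outcomes, at 7.04% to 9.71% in the uncured and 27.4% to 29.3% in the cured mice, and its part in the other differences was not tested.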

How the data were processed

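Bulk RNA-seq libraries (paired 150 bp reads, per the study's methods) were aligned by the authors to mm10 with STAR 2.7.0f and counted per gene with featureCounts 1.6.4, per the submitters' processing notes, whereas the study's methods name another STAR version and HTSeq. The deposited table holds whole-number counts for 24421 genes in 29 libraries, with no normalization. Strand handling of the counting is not given in the sources used here, so overlapping antisense genes cannot be told apart. Uncured and cured follow the mouse number in the titles; the members, gene lists and ratios were chosen with earlier results of these data known.

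The 5 libraries were fitted in edgeR 4.0.16 (R 4.3.3) by the quasi-likelihood test with TMM factors of 1.38 and 1.39 (uncured) and 0.79 to 0.81 (cured), after filterByExpr kept 15796 genes, with outcome as the only term and Benjamini-Hochberg adjustment at 0.05. CPM used TMM sizes over all 29 libraries. DESeq2 1.42.0 was an alternative. On simulated counts for this comparison (15796 genes, 200 changed 4-fold), 196 were recovered with 23 false calls. Only those 200 genes differed, so the simulation does not cover a comparison with this many calls or its dependence on scaling. Genes named are the 12 largest changes in each direction (5 CPM, no overlap), genes the study names, the most abundant and the extreme members of each list, and JAK-STAT, checkpoint and cytokine members; other names were chosen after their values were seen. A few genes that this rule names are not reported here. Positions are GENCODE vM21 (GRCm38), matched by symbol for 95.5% of genes. Mice are separate animals, and p-values over 2 against 3 measure only their spread. Intervals and floors (3 counts) cover counting error only.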

Additional observations from a re-analysis of the deposited data

Results flagged for a closer look

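Of 15 gene lists examined over the 5 untreated week 5 libraries quoted as the reference, 2 had 1 library far below the other 4 by Dixon's criterion, which chance alone meets in about 1 of 20 groups. Both were the same library, untreated 2, which summed to 155.0 CPM over the intestinal epithelium genes and to 207.9 CPM over the monocyte and neutrophil genes. It also had the lowest gastric epithelium and the highest skeletal muscle sum of the 5. No list in the cured or uncured group could be examined this way, since those groups hold 3 and 2 libraries.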

How the results depend on the processing

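No paired analysis was possible because the uncured mice carry the numbers 1 and 5 and the cured mice 2, 3 and 4, so the groups share no number. The number of genes called was 9004 to 12441 under the scalings, filters, tools, depths and sample sets tried other than a test against a 2-fold difference, and 9668 to 10883 with 1 library left out. That test called 4771 genes, 2742 higher and 2029 lower, and totals alone called 10127 higher and 2314 lower. On TMM-scaled sizes, the share of the gastric list differed by 0.527 and that of the muscle list by -32.7 percentage points.

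Totals alone reversed the medians of the mesothelium (0.63), atrophy and stress (0.65), endothelium (0.41), neoantigen (0.55) and red cell and platelet (0.75) lists, and the values of Batf3 (0.47), Cd247 (0.54), Cish (0.05), Gadd45a (0.39), Ifit3 (0.08), Il6st (0.21), Jak1 (0.30), Myog (0.09), Pdgfrb (0.63), Scarb2 (0.55), Stat5a (0.52) and Trp63 (0.07). The red cell and platelet median was 0.03 with upper-quartile factors. With 1 library left out, the mesothelium median ranged from -0.58 to 0.23 and the red cell and platelet one from -0.20 to 0.12, and Vtcn1 from -0.38 to 0.51. With 1 uncured library left, its spread is assumed to be that of the cured. Over the 216 named genes and all settings, 3463 of 3662 values kept their direction and side of the threshold, 168 lost the call, 17 gained it and 14 turned in sign. The fit over the 19 week 5 libraries, with 31 lost calls, and that over all 29, with 18, shared the loss for Ccr2, Cd28, Cish, Folr2, Gadd45a, Ifit3, Il12a, Jak2, Myh3, Myh8, Myog, Ovol1, Pi16, Retnla, Stat5a and Tnfrsf4. Acta1, Adipoq, Ccl24, Ccne2, Cd160, Cxcl12, Dpt, Il12rb2, Il6st, Jak1, Lep, Pgam2, Sele, Timd4 and Trim63 lost it over 19 alone and Lyve1 and Trp63 over 29 alone. The cause of these changes was not tested, beyond the shift that totals alone give to every gene. Depth limits genes with few counts in the cured libraries, among them Pdcd1, Ctla4, Agr2 and Hnf4a.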
